A study of Mus musculus with 18 samples.

Results

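The genes examined are those of the mitochondrial respiratory chain and ATP synthase, the nuclear-encoded part of oxidative phosphorylation. Members were chosen by symbol alone: every gene whose symbol starts with Nduf followed by a, b, c, s or v, with Uqcr, with Cox4 to Cox8, with Atp5, or with Sdha to Sdhd. Of the 19912 genes represented by a probe set that names a single gene, 93 matched. They comprise 74 ubiquitous subunits (35 of complex I, 4 of complex II, 8 of complex III, 10 of complex IV and 17 of complex V), 3 muscle isoforms of complex IV (Cox6a2, Cox7a1 and Cox8b), and 5 other isoforms known from particular tissues or conditions (Cox4i2, Cox6b2, Cox7b2, Cox8c and Ndufa4l2). The remaining 11 matches, Ndufaf1 to Ndufaf7 and Sdhaf1 to Sdhaf4, are assembly factors and not subunits, and are counted apart. Ndufa4 was counted with complex I by its symbol, although it is now regarded as a protein of complex IV, and Cox7a2l is a factor that joins complexes into supercomplexes.

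The arrays measured mRNA in cells of CD1 mice in 6 groups of 3. Newborn hearts gave cardiomyocytes (CM) and fibroblasts (CF). The other groups were GFP+ induced cardiomyocyte-like cells (iCM) at 2 and at 4 weeks, and the GFP- cells at 2 and at 4 weeks in which reprogramming had failed. The labels do not name the reprogramming factors or the promoter that drives GFP. From general knowledge of this system, the factors were Gata4, Mef2c and Tbx5 and the reporter was driven by the alpha myosin heavy chain promoter, so GFP marks cells in which that promoter was active. Replicates are described as biological in the series' design; separate cultures are not mentioned, and the spread behind each p-value may be partly technical. Each array measured a cell population, so fewer cells of a type and less RNA per cell cannot be told apart.

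The respiratory chain passes electrons from NADH (complex I) and succinate (complex II) through ubiquinone to complex III, cytochrome c and complex IV, where oxygen is reduced. Complexes I, III and IV pump protons across the inner mitochondrial membrane, and complex V uses that gradient to make ATP. Heart muscle is among the tissues richest in these proteins, and several complex IV subunits exist as a ubiquitous and a striated-muscle isoform encoded by separate genes.

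Array medians lay between 7.32 and 7.45 (log2 intensity), and arrays of the same group correlated at 0.990 to 0.996. The lowest 25th percentile of any array, 6.16, was taken as the background level, and of the members Cox7b2 alone had every group mean below it. Cardiomyocyte markers (7 genes, mean log2 level) stood at 13.13 in CM, 11.98 in 4-week iCM, 11.16 in 2-week iCM, 8.44 and 8.35 in 4- and 2-week GFP- cells and 7.67 in CF. Macrophage markers (8 genes) stood at 11.97 in CF, 12.15 and 12.20 in 2- and 4-week GFP- cells, 9.85 and 9.42 in 2- and 4-week iCM and 6.51 in CM. Fibroblast markers (7 genes) stood at 10.71 in CF and 10.04 in CM, and at 8.28 to 9.34 in the other 4 groups. Endothelial markers (5 genes) were high in CM (9.32) and 4-week GFP- cells (9.16) and low in CF (6.58). Proliferation markers (3 genes) ran from 10.31 in 2-week GFP- cells to 6.61 in 4-week iCM. These levels move with the groups compared below, and their part in the results was not tested.

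The ubiquitous subunits were lowest in CF and highest in CM, with the reprogrammed cells in between. Averaged over the 74 subunits and set against the CF mean, the 3 CF arrays lay between -0.01 and 0.01, the 4-week GFP- arrays between 0.04 and 0.09, and the 2-week GFP- arrays between 0.11 and 0.14 (log2). The 2-week iCM arrays lay between 0.19 and 0.31, the 4-week iCM arrays between 0.36 and 0.49, and the CM arrays between 1.10 and 1.21. No 2 groups overlapped on this average. The group means above CF were 1.17 in CM, 0.41 in 4-week iCM, 0.26 in 2-week iCM, 0.13 in 2-week GFP- cells and 0.07 in 4-week GFP- cells.

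**Figure D1:**
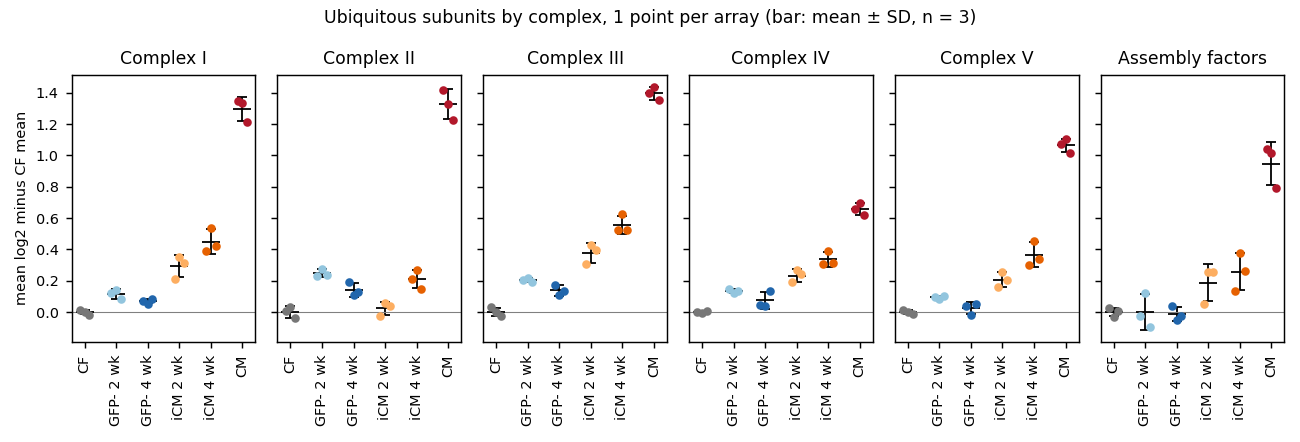
Mean log2 intensity of the ubiquitous subunits of each complex, and of the assembly factors, relative to the CF mean, with 1 point per array and bars for mean ± SD (n = 3). CM stands apart in every panel; in complex II the 2-week iCM arrays (0.02 above CF on average) lie below the 2-week GFP- arrays (0.25).

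Between CM and CF all 74 ubiquitous subunits were higher in CM (limma, adjusted p under 0.05). Over all genes, 19.6% were called higher and 21.5% lower, with a median difference of 0.03. The median difference of the subunits was 1.15 on the log2 scale, the range was 0.21 to 2.35, and 49 of the 74 differed by at least 2-fold. The shares over all genes, here and below, carry no fold limit and are not a baseline for 2-fold counts. Counting isoforms and assembly factors, 88 of the 93 members were called higher and 0 lower. The 5 not called were Cox4i2, Cox7b2, Cox8c, Ndufa4l2 and Sdhaf2. The call on Cox7a2l, the smallest (0.21 ± 0.07, SE; adjusted p = 0.0244), was lost without CM replicate 2 (0.15, adjusted p = 0.129), without CF replicate 2 (0.20, adjusted p = 0.0752) and without CF replicate 3 (0.21, adjusted p = 0.0606). That call was also lost with only the groups compared in the fit (0.21, adjusted p = 0.0792). Without CM replicate 1, in which Ndufa4l2 read 7.37 against 6.49 and 6.44 in the other two, Ndufa4l2 was called lower in CM (-0.37, adjusted p = 0.0242).

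Complex I, the NADH dehydrogenase, had a median CM minus CF difference of 1.29, with all 35 ubiquitous subunits called. Ndufv1, a flavoprotein of its NADH-oxidising module, read 9.31, 9.18 and 9.04 in CF and 11.64, 11.36 and 11.24 in CM, a difference of 2.23 ± 0.09 (SE; adjusted p = 1.05e-13). Ndufs1, the large iron-sulfur protein of the same module, and Ndufb2, an accessory membrane subunit, both differed by 1.91. Complex II, succinate dehydrogenase, which is also an enzyme of the tricarboxylic acid cycle, had a median of 1.34. Its iron-sulfur subunit Sdhb differed most (1.65 ± 0.08, SE), and its membrane anchor Sdhc least (0.98). Complex III had a median of 1.36, led by Uqcr11 (1.95 ± 0.09, SE), the core proteins Uqcrc2 (1.83) and Uqcrc1 (1.75).

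Complexes IV and V had smaller medians, 0.69 and 0.88, with all 10 and all 17 ubiquitous subunits called. In complex IV the ubiquitous isoform Cox6a1 differed by 0.35 and Cox6c by 0.38, against 1.28 for Cox7a2. In complex V, Atp5g1, 1 of 3 genes for the same proton-carrying subunit c, read 9.64, 9.65 and 9.53 in CF and 12.08, 11.94 and 11.84 in CM, a difference of 2.35 ± 0.09 (SE; adjusted p = 9.5e-15). The other subunit c genes, Atp5g3 and Atp5g2, differed by 1.14 and 0.88. Subunits with a brighter signal tended to differ less. The 16 ubiquitous subunits with a CM mean above 13 had a median difference of 0.73, against 1.29 for the other 58, on arrays whose brightest probe set read 13.82 to 13.95. Across the 74 subunits, level and difference had a Spearman rho of -0.68, a description across genes that share arrays, and any part of signal compression in it was not tested.

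**Figure D2:**
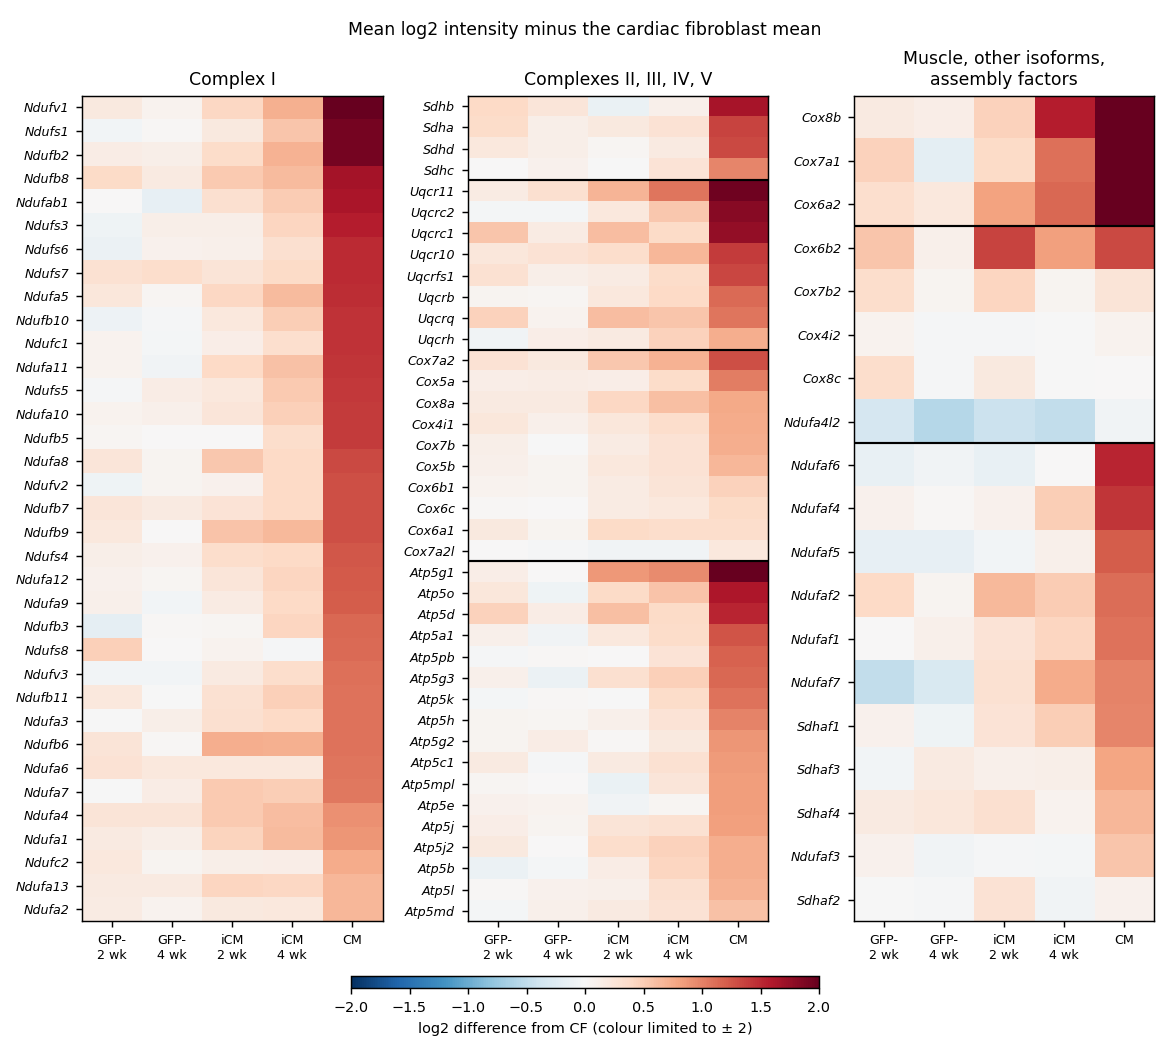
Group mean log2 intensity minus the CF mean for all 93 members, in 3 panels by complex and class, coloured from -2 to 2. The CM column is red for nearly every subunit, the iCM columns are pale red, and Cox8b, Cox7a1, Cox6a2, Atp5g1 and Ndufv1 pass the end of the scale in CM.

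The 3 muscle isoforms showed the widest differences of all members between CM and CF. Cox8b, the striated-muscle form of subunit VIII, read 6.73, 6.65 and 6.89 in CF and 13.03, 13.14 and 13.01 in CM, a difference of 6.30 ± 0.16 (SE; 79.0-fold; adjusted p = 3.51e-17). Cox7a1, the muscle form of subunit VIIa, read 8.12, 8.36 and 8.50 in CF and 12.62, 12.80 and 12.64 in CM, a difference of 4.36 ± 0.14 (SE; 20.5-fold). Cox6a2, the muscle form of subunit VIa, read 8.29, 8.18 and 8.23 in CF and 12.47, 12.63 and 12.40 in CM, a difference of 4.27 ± 0.14 (SE; 19.3-fold). Their ubiquitous partners Cox8a, Cox7a2 and Cox6a1 differed by 0.76, 1.28 and 0.35. Cox7a1 and Cox8b are also known from brown adipocytes. Their defining gene Ucp1, the only 1 of 5 listed brown adipocyte markers given here, had group means of 6.27 to 6.55. These were close to background in all 6 groups, and a part of brown adipocytes in the results was not tested.

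The sequences upstream of a muscle and a ubiquitous isoform are shown because the arrays separate the 2 genes most sharply, and that of Cox6a1 because it carries the word that was more frequent among the ubiquitous subunits. They are the 250 bases before the RefSeq gene start in build GRCm38.p6, 5′ to 3′ on the gene's strand. Cox8b lies at chr7:140900447-140900696 (minus strand), Cox8a at chr19:7217617-7217866 (minus strand) and Cox6a1 at chr5:115348959-115349208 (minus strand). Capitals mark any match, on either strand, to an E-box (CANNTG), the word CCAAT, the NRF1 consensus, an ETS or GABP word (CCGGAAG), an ERR word (TNAAGGTCA), a YY1 word (AAGATGGC) or the MEF2 consensus. Also searched were the Sp1 word GGGCGG, the core promoter word TATAAA and the TEAD word CATTCC. No 2 of these matches overlap in the sequences below.
Cox8b: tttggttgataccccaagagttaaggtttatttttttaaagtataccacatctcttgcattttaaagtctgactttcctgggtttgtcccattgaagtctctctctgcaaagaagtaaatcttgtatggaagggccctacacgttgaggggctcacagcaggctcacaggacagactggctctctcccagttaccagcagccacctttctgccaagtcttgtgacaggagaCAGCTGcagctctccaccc
Cox8a: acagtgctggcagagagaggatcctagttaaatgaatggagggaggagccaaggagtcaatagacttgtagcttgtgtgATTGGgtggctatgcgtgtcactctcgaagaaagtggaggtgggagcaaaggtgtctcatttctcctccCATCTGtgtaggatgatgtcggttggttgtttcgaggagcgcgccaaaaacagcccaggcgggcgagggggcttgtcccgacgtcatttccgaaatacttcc
Cox6a1: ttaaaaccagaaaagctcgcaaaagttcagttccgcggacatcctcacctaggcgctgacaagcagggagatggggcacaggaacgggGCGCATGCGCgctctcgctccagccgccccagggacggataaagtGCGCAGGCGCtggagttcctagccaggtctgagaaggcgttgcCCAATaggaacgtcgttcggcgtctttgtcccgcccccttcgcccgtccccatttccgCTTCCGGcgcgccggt

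The Cox8b window held an E-box and no other word searched, and 1 CpG in 47.2% GC. The Cox8a window held an E-box and a CCAAT box with 11 CpG, and the Cox6a1 window 2 NRF1 matches, an ETS word, a CCAAT box and the Sp1 word (not in capitals) with 26 CpG. Of the pair not shown, the muscle isoform Cox7a1 had an E-box and 2 CCAAT boxes with 4 CpG. Its ubiquitous partner Cox7a2 had an E-box and the Sp1 word with 14 CpG, and no NRF1 or ETS match. Of the 93 members, 77 had a promoter in the RefSeq table, Cox6a2 not among them. The NRF1 consensus occurred in 13 of the 68 promoters of ubiquitous subunits (19.1%), against 3.74% of all 32851 promoters of the same length. The ETS word occurred in 17.6% against 6.91%, the E-box in 58.8% against 66.2%, the CCAAT box in 39.7% against 33.8%, and the MEF2 consensus in 0 of 68 against 2.92%. The ERR and YY1 words each occurred in 1 of 68 (1.47%), against 1.14% and 1.56%, the Sp1 word in 33.8% against 32.7%, TATAAA in 10.3% against 12.4% and the TEAD word in 11.8% against 12.6%. Ubiquitous subunit promoters also had more GC (median 57.0% against 52.4%) and more CpG (median 14.5 against 6). A match is a description of letters, and no match says only that those letters were not in the window.

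In iCM, Cox8b, Cox7a1 and Cox6a2 were higher than in CF and far below CM. At 4 weeks Cox8b read 8.62, 8.56 and 7.82, so that all 3 arrays lay above every CF array, by 1.57 ± 0.16 (SE; adjusted p = 9.6e-08) on average. Cox7a1 read 9.42, 9.70 and 9.18, 1.11 ± 0.14 above CF, and Cox6a2 read 9.41, 9.57 and 9.19, 1.16 ± 0.14 above CF. Against CM the same arrays differed by -4.73, -3.25 and -3.11 in that order, while the cardiomyocyte markers of 4-week iCM averaged 11.98 against 13.13 in CM. These markers include Myh6, the alpha myosin heavy chain gene, whose promoter marked the GFP+ cells. Their mean is therefore not independent of how iCM were selected. At 2 weeks Cox6a2 was 0.80 ± 0.14 above CF (SE; adjusted p = 1.28e-04). The 2-week calls on Cox8b (0.46, adjusted p = 0.0284) and Cox7a1 (0.39, adjusted p = 0.0337) were not stable. For Cox8b the adjusted p was 0.114 without iCM replicate 1, 0.0541 without iCM replicate 2, 0.0699 without CF replicate 1 and 0.102 without CF replicate 2. For Cox7a1 it was 0.178 without iCM replicate 2, 0.168 without CF replicate 1 and 0.0640 without CF replicate 2.

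**Figure D3:**
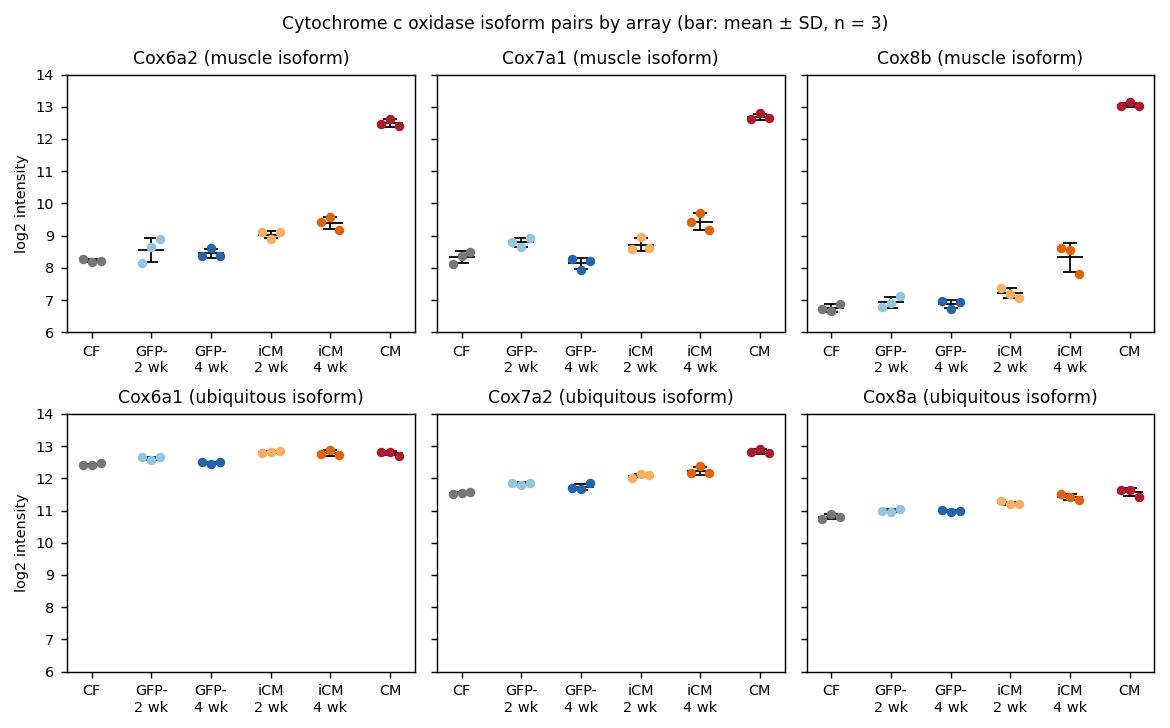
Log2 intensity of the muscle isoforms (top) and their ubiquitous partners (bottom) on each array, with bars for mean ± SD (n = 3) in the 6 groups. The muscle isoforms of CM lie at 12.40 or above while no iCM array passes 9.70, and the ubiquitous partners differ far less between groups.

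Against GFP- cells of the same week, the muscle isoforms were clearly higher in iCM at 4 weeks. There Cox8b read 6.99, 6.74 and 6.93 in GFP- cells, 1.45 ± 0.16 below iCM (SE; adjusted p = 2.76e-07), Cox7a1 differed by 1.30 ± 0.14 and Cox6a2 by 0.94 ± 0.14. At 2 weeks Cox8b (0.28, 95% interval -0.05 to 0.61) and Cox7a1 (-0.08, -0.36 to 0.21) did not pass the threshold, while Cox6a2 did (0.47, adjusted p = 0.0118). That call on Cox6a2 was lost without GFP- replicate 1 (0.27, adjusted p = 0.110), which read 8.17 against 8.64 and 8.89 in the other GFP- arrays. The call was also lost with only the groups compared in the fit (0.47, adjusted p = 0.0569). From 2 to 4 weeks in iCM, Cox8b rose by 1.11 ± 0.16 (SE; adjusted p = 1.49e-04) and Cox7a1 by 0.72 ± 0.14 (SE; adjusted p = 0.00189), both under every alternative tried, while Cox6a2 differed by 0.35 (adjusted p = 0.119). In GFP- cells over the same interval Cox7a1 fell by 0.66 (adjusted p = 0.00218). The change over time differed between iCM and GFP- cells for 6 members, each with the iCM change above the GFP- change. Over all genes 1.86% were called in this direction and 2.08% in the other. The count of members ran from 2 to 6 with an array left out and was 2 with only the groups compared in the fit. It was 21 with quantile normalization, 16 with cyclic loess, 28 with array weights and 21 with an intensity trend. The difference was 1.37 ± 0.19 for Cox7a1 and 1.17 ± 0.22 for Cox8b (SE; adjusted p = 3.34e-04 and 0.00394).

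Within an array, the muscle isoform minus its ubiquitous partner shows whether the pair changed unequally. Averaged over both weeks, this difference was larger in iCM than in GFP- cells by 0.46 for Cox6a2 and Cox6a1, 0.54 for Cox8b and Cox8a, and 0.24 for Cox7a1 and Cox7a2. By a two-sided exact permutation test within week, whose smallest possible p is 0.005, the adjusted p over the 3 pairs was 0.03, 0.0525 and 0.245. The Cox6a2 pair lost its call without GFP- 2-week replicate 1 (0.35, adjusted exact p = 0.075) and without iCM 2-week replicate 1 (0.43, adjusted exact p = 0.075). The Cox8b pair gained one without 2-week GFP- replicate 3 (0.57, adjusted exact p = 0.0225) and without 2-week iCM replicate 3 (0.56, adjusted exact p = 0.0375). By week, the Cox8b pair shifted by 0.05 at 2 weeks and 1.02 at 4 weeks, the Cox7a1 pair by -0.32 and 0.79, and the Cox6a2 pair by 0.28 and 0.64. In CM the differences within the array were 1.495, -0.14 and -0.27 for the pairs of Cox8b, Cox7a1 and Cox6a2, against -3.08, -2.80 and -3.40 in 4-week iCM.

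The ubiquitous subunits of 2-week iCM were above CF for 38 of 74, with a median difference of 0.21. Over all genes 17.4% were called higher and 15.8% lower. All members together gave 45 higher and 0 lower, a count that includes Cox7b2, whose levels lie below background in both groups, and that was 68 higher with array weights. Apart from the muscle isoforms given above, the largest differences were those of the isoform Cox6b2 (1.36 ± 0.17, SE), Atp5g1 (0.87 ± 0.09, SE) and Ndufb6, an accessory subunit of complex I (0.73 ± 0.08, SE). Atp5g1 read 10.45, 10.48 and 10.50 in these cells, above every CF and every GFP- array and below every CM array. By complex, 20 of 35 subunits of complex I, 0 of 4 of complex II, 6 of 8 of complex III, 5 of 10 of complex IV and 7 of 17 of complex V were called higher.

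In 4-week iCM, 66 of 74 ubiquitous subunits were above CF, with a median of 0.39. Over all genes 14.3% were called higher and 15.2% lower. All members gave 75 higher and 1 lower. Uqcr11, a small subunit of complex III, was the only ubiquitous subunit to differ by at least 2-fold (1.08 ± 0.09, SE; adjusted p = 5.05e-09). It read 10.94, 11.17 and 10.97, against 10.01, 9.94 and 9.90 in CF and 11.96, 11.88 and 11.85 in CM. Next were Atp5g1 (0.94 ± 0.09, SE), Cox6b2 (0.82 ± 0.17, SE), the assembly factor Ndufaf7, a methyltransferase acting on complex I (0.74 ± 0.11, SE), and Ndufb6 (0.71 ± 0.08, SE). Of the 66 calls, 54 held under every alternative tried. The 1 lower call, Ndufa4l2 (-0.50, adjusted p = 0.0383), a hypoxia-responsive paralogue of Ndufa4 near background, was lost when any 1 of the 6 arrays was left out.

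The comparison of 4-week iCM with GFP- cells of the same week shares no array with that of CM and CF. At 4 weeks, 59 of 74 ubiquitous subunits were higher in iCM and 0 lower, with a median of 0.34. Over all genes 17.2% were called higher and 17.1% lower. With isoforms and assembly factors the count was 68 higher and 0 lower. Complex I contributed 30 of 35, complex III 7 of 8, complex IV 9 of 10, complex V 13 of 17 and complex II 0 of 4. Atp5g1 differed most among the ubiquitous subunits (0.93 ± 0.09, SE; adjusted p = 2.64e-08), with GFP- arrays at 9.68, 9.58 and 9.57 and iCM arrays at 10.50, 10.59 and 10.54. Uqcr11 (0.76 ± 0.09, SE), Ndufb6 (0.68 ± 0.08, SE) and the assembly factor Ndufaf7 (1.05 ± 0.11, SE) were also well separated. Under every alternative tried, 39 of the 59 calls held. Across the 74 subunits, this difference and the CM minus CF difference had a Pearson r of 0.49 and a Spearman rho of 0.44, against a Pearson r of 0.61 over all genes. These are descriptions across genes, which are not independent replicates.

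**Figure D4:**
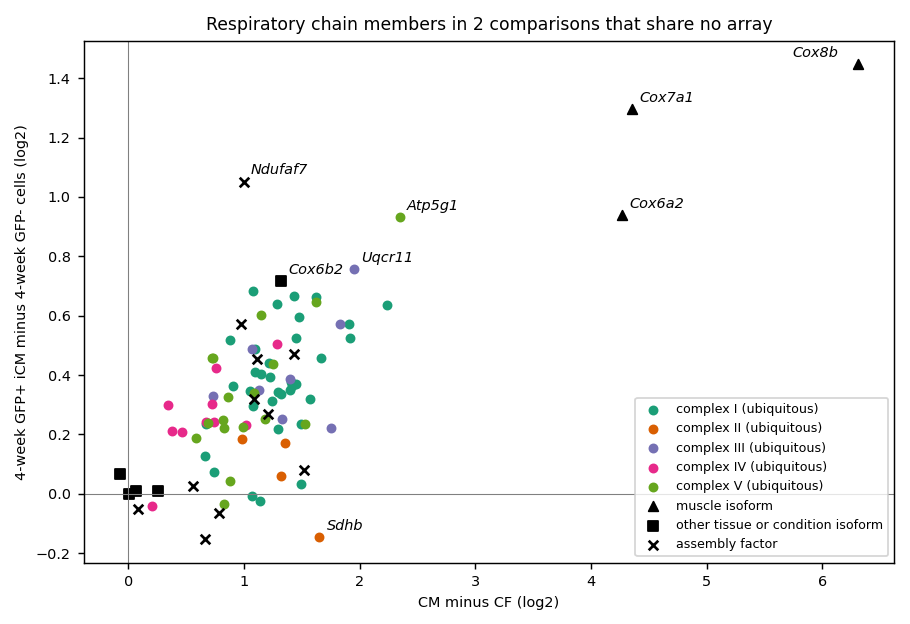
Difference between 4-week iCM and 4-week GFP- cells (vertical, log2) against the difference between CM and CF (horizontal, log2), with 1 point per member, coloured by complex and shaped by class. Muscle isoforms lie far to the right (4.27 to 6.30) at 0.94 to 1.45, and Sdhb lies below 0 at -0.15.

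At 2 weeks the iCM differed less from their GFP- cells. Of the 74 ubiquitous subunits 22 were higher in iCM and 2 lower, with a median of 0.15, while over all genes 16.2% were called higher and 18.4% lower. All members gave 25 higher, and 16 without iCM 2-week replicate 2. The count was 12 with only the groups compared in the fit, 38 with quantile normalization and 44 with array weights. All 22 were also among the 59 of 74 called higher at 4 weeks (100% of the first list and 37.3% of the second). With most subunits called at 4 weeks, a large overlap would be found for 22 subunits taken at random. The 2-week calls that held under every alternative included Atp5g1 (0.74 ± 0.09, SE), Ndufa7 of complex I (0.52 ± 0.10, SE), Uqcr11 (0.51 ± 0.09, SE), Ndufb6 (0.47 ± 0.08, SE), Cox6b2 (0.81 ± 0.17, SE) and Ndufaf7 (0.80 ± 0.11, SE).

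The 2 subunits lower in 2-week iCM than in GFP- cells are both iron-sulfur proteins that carry electrons within their complexes. Sdhb of complex II read 10.07, 10.15 and 10.21 in iCM and 10.75, 10.69 and 10.60 in GFP- cells, a difference of -0.53 ± 0.08 (SE; adjusted p = 1.81e-05). Ndufs8 of complex I read 9.33, 9.53 and 9.52 in iCM and 9.92, 9.89 and 9.82 in GFP- cells, lower by 0.41 ± 0.09 (SE; adjusted p = 0.00140). The groups did not overlap for either gene, and both calls held under every alternative tried. Against CF, neither differed detectably in 2-week iCM (Sdhb -0.13, 95% interval -0.30 to 0.04; Ndufs8 0.06, -0.13 to 0.26), and both were higher in 2-week GFP- cells (0.41 and 0.47). At 4 weeks neither passed the threshold against GFP- cells (Sdhb -0.15, Ndufs8 -0.02).

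Complex II had few calls in the reprogrammed cells. Its flavoprotein Sdha was 0.29 ± 0.08 above CF in 4-week iCM (SE; adjusted p = 0.00859), and Sdhc 0.27 ± 0.08 (SE; adjusted p = 0.0118), the latter not without iCM 4-week replicate 2 (0.23, adjusted p = 0.0595). Sdhb (0.10, 95% interval -0.07 to 0.27) and the anchor Sdhd (0.18, 0.0024 to 0.35) did not pass. No member of complex II was called between iCM and GFP- cells at 4 weeks, where the differences ran from -0.15 (Sdhb) to 0.19 (Sdhc). The difference of complex II from the other complexes was not itself tested.

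**Figure D5:**
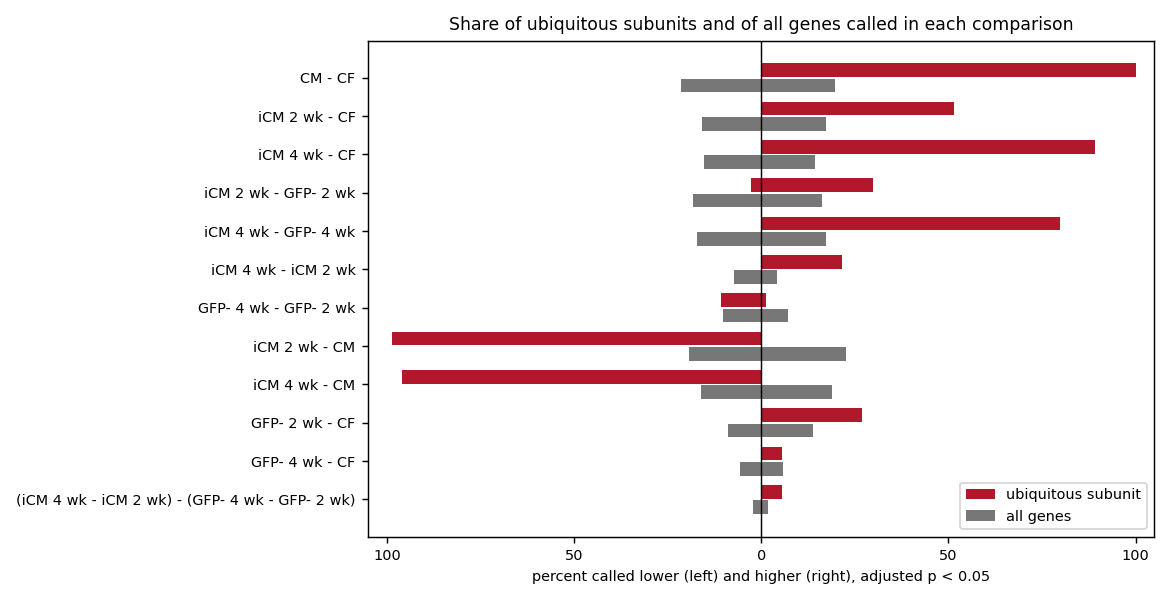
Percentage of the 74 ubiquitous subunits (red) and of all 19912 genes (grey) called lower (left) and higher (right) in each of 12 comparisons. The subunits pass the background most clearly in the comparisons of CM and of 4-week iCM, and lie close to it for 4-week GFP- cells against CF (4 of 74 higher).

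Between 2 and 4 weeks the iCM gained in a smaller number of subunits. Among the ubiquitous subunits 16 of 74 were higher at 4 weeks and 0 lower, with a median of 0.17, against 4.29% of all genes called higher and 7.24% lower. Uqcr11 (0.40 ± 0.09, SE; adjusted p = 0.00551) and Atp5mpl, a small membrane subunit of complex V (0.37 ± 0.08, SE; adjusted p = 0.00408), held under every alternative tried. All members gave 20 higher, a count that dropped to 10 without iCM 2-week replicate 1, 12 without iCM 2-week replicate 3 and 6 without iCM 4-week replicate 2. It was also 6 with only the groups compared in the fit, and it went up to 39 with quantile normalization, 33 with cyclic loess, 33 with array weights and 31 with an intensity trend. The isoform Cox6b2, known from testis, read 8.84, 9.39 and 9.17 at 2 weeks and 8.68, 8.61 and 8.50 at 4 weeks, against 9.33, 9.11 and 8.86 in CM and 7.80, 7.96 and 7.58 in CF. It was the 1 member lower at 4 weeks (-0.54, adjusted p = 0.0429), a call lost without iCM 2-week replicate 2 (-0.41, adjusted p = 0.175) or 3 (-0.52, adjusted p = 0.117), and without iCM 4-week replicate 1 (-0.58, adjusted p = 0.0671), 2 (-0.54, adjusted p = 0.105) or 3 (-0.49, adjusted p = 0.131).

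Relative to CM, both iCM groups remained low in nearly all subunits. In 2-week iCM 73 of 74 ubiquitous subunits were lower than in CM, with a median of -0.93, and 33 were lower by at least 2-fold. Over all genes 22.7% were called higher and 19.4% lower. In 4-week iCM 71 of 74 were lower, with a median of -0.74, and 19 by at least 2-fold, against 19% of all genes called higher and 16.1% lower. The 3 that were not called lower, Cox6a1, Cox8a and Cox6c, all belong to complex IV. Cox6c differed by -0.22 to -0.05 over the alternatives tried and was called lower in 4 of them. Cox8a differed by -0.24 to -0.10 and was called lower in 2. Cox6a1 read 12.75, 12.88 and 12.71 in 4-week iCM and 12.81, 12.82 and 12.70 in CM, and the groups overlapped. Sdhb (-1.55 ± 0.08, SE) and Ndufv1 (-1.53 ± 0.09, SE) were the ubiquitous subunits farthest below CM at 4 weeks. Among assembly factors Ndufaf6 was lower by 1.51 ± 0.12 (SE).

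GFP- cells differed from CF in a modest number of members at 2 weeks and in few at 4 weeks. At 2 weeks 24 members were above CF and 1 below, 20 of the 24 being ubiquitous subunits, against 13.8% of all genes called higher and 8.93% lower. The count was 13 without GFP- replicate 1, 12 without GFP- replicate 3, 14 without CF replicate 1 and 13 without CF replicate 3, and 14 with only the groups compared in the fit. The 24 include Cox7b2, below background in both groups, for which no direction is given. Uqcrc1, a core protein of complex III, read 9.94, 9.91 and 9.92 against 9.40, 9.39 and 9.33 in CF (0.55 ± 0.08, SE; adjusted p = 8.32e-05). Its complex III partner Uqcrq (0.46), Atp5d of complex V (0.47), Ndufs8 (0.47), Sdhb (0.41) and Sdha (0.37) were also higher, and the assembly factor Ndufaf7 lower (-0.50), each under every alternative tried. Cox6b2 and Cox7a1 were among the 24 but not stable. Cox6b2 (0.55) had an adjusted p of 0.0941 without GFP- replicate 2, 0.0528 without CF replicate 1 and 0.106 without CF replicate 3. Cox7a1 (0.46) had one of 0.0507 without GFP- replicate 1, 0.0777 without GFP- replicate 3 and 0.105 without CF replicate 1.

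By 4 weeks 4 members of the GFP- cells were above CF and 1 below, against 5.79% of all genes higher and 5.7% lower, so the share was close to the background. The 4 were Ndufs7 (0.35), Uqcr11 (0.32), Uqcr10 (0.28) and Ndufa4 (0.25). The count was 2 without GFP- replicate 1, GFP- replicate 2 or CF replicate 2, and 1 without CF replicate 3. The lower call was Ndufa4l2 (-0.56), and it was lost without any 1 of the 6 arrays. It was also lost with quantile normalization (-0.52, adjusted p = 0.0754) and with cyclic loess (-0.52, adjusted p = 0.075). From 2 to 4 weeks in GFP- cells, 10 of the 93 members were lower and 1 higher, against 10.2% of all genes lower and 7.16% higher. The share lower was close to the background and the share higher was below it. This comparison shares the 2-week GFP- arrays with the one to CF at 2 weeks. Ndufs8 (-0.47 ± 0.09, SE), Uqcrq (-0.39 ± 0.08, SE) and Uqcrc1 (-0.38 ± 0.08, SE) were lower under every alternative tried. The 10 became 6 without GFP- 2-week replicate 1, GFP- 4-week replicate 2 or GFP- 4-week replicate 3. The 1 higher call, Uqcrh (0.22, adjusted p = 0.0358), was lost without any 1 of the 6 arrays. It was also lost with only the groups compared in the fit (0.22, adjusted p = 0.121). Under another scaling the split also moved, to 4 higher and 11 lower with quantile normalization, and to 4 and 10 with cyclic loess. It was 5 and 20 with array weights, and 0 and 4 with only the groups compared in the fit. With an intensity trend it was 3 and 17.

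The remaining isoforms showed little. Cox4i2, the hypoxia-associated isoform of subunit IV, had group means of 7.20 to 7.29, and no comparison called it. Cox8c, known from testis, had group means of 6.79 to 7.15. Cox7b2 had group means of 4.67 to 5.10, below background throughout, so no direction is given. Among the assembly factors, 10 of 11 were higher in CM than in CF (median 1.00), against 19.6% of all genes. In 4-week iCM 5 of 11 were higher than in GFP- cells of that week, against 17.2% of all genes. Ndufaf7 read 9.18, 9.53 and 9.35 in 4-week iCM, 8.23, 8.34 and 8.34 in 4-week GFP- cells, 8.68, 8.59 and 8.57 in CF and 9.68, 9.68 and 9.48 in CM.

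Of 14 regulators of mitochondrial genes, 9 were higher and 1 lower in CM than in CF, and 6 higher and 1 lower in 4-week iCM than in GFP- cells of that week. Of all genes 19.6% were higher and 21.5% lower in the first comparison, and 17.2% and 17.1% in the second. Ppargc1a, the coactivator that drives mitochondrial biogenesis, had means of 6.33 ± 0.19 in CF, 7.25 ± 0.39 in 4-week GFP- cells, 9.58 ± 0.31 in 4-week iCM and 12.33 ± 0.09 in CM (SD, n = 3). Esrrg, an orphan nuclear receptor active in oxidative muscle, had means of 6.62 ± 0.28, 6.83 ± 0.12, 8.78 ± 0.20 and 9.60 ± 0.12 in the same order (SD, n = 3). At 4 weeks iCM exceeded GFP- cells by 2.33 ± 0.21 for Ppargc1a and 1.95 ± 0.14 for Esrrg (SE; adjusted p = 1.55e-08 and 8.08e-10). Nrf1 (-0.12), Gabpa (-0.04) and Tfam (0.04), which act on subunit promoters or on mitochondrial DNA, did not pass there. The electron carrier genes Cycs and Cyc1 (cytochromes c and c1) were both higher in CM than in CF (1.16 and 1.96) and in 4-week iCM than in GFP- cells (0.56 and 0.60). Of 11 assembly genes of complexes III and IV, 9 were higher in CM than in CF (19.6% of all genes) and 3 in 4-week iCM than in GFP- cells (17.2% of all genes), led there by Cox19 (1.33 ± 0.11, SE) and the copper chaperone Cox17 (0.43 ± 0.08, SE). Subunits encoded by mitochondrial DNA were not analysed here.

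The genes whose pattern over the 18 arrays was most like the mean of the 3 muscle isoforms were Myh7 (Pearson r = 0.995), Fh1 (0.994), Mpped2 (0.994), Slitrk4 (0.993) and Dhrs7c (0.993). Myh7 encodes the slow beta myosin heavy chain and Fh1 fumarate hydratase of the tricarboxylic acid cycle. These correlations describe arrays that fall into 6 groups and are dominated by CM.

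Where a member had several probe sets the brightest was used. This applied to 18 members, whose 26 other probe sets were called higher in CM than in CF in 25 cases and lower in 0, and higher in 4-week iCM than in GFP- cells in 17 cases and lower in 0. In the second comparison some calls depended on the probe set (limma over all single-gene probe sets). The Atp5l set used was not called (adjusted p = 0.0508), while each of its others was (0.0130 to 0.0438). For Atp5pb and Cox7b the set used was called (adjusted p = 0.0244 and 0.0223) and the other was not (0.0876 and 0.0528).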

How the data were processed

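RNA was hybridised to 18 Affymetrix Mouse Gene 1.0 ST arrays. The deposited values are log2 intensities, which the authors made with RMA per the submitters' processing notes; the annotation and version they used are not given in the sources used here. RMA's quantile step holds array distributions alike, so differences are relative, and bright probe sets can be compressed.

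Of 28682 probe sets, 21755 name 1 gene in GEO's platform annotation, 1592 several and 5335 none; the probe set with the highest mean was kept per gene, giving 19912 genes. Ndufb4 has only probe sets that name several genes and is not included. All 18 arrays were fitted with limma 3.58.1 (lmFit, eBayes; R 4.3.3), with Benjamini-Hochberg adjustment over all genes within each of 12 comparisons, called at an adjusted p under 0.05. The script was tested on simulated data. Differences are log2 with SE; the number of arrays limits precision.

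Named are isoforms set apart, the Sdh genes, and up to 5 called members per direction and comparison with the largest differences; others were chosen after their values were seen. The members and lists were chosen with earlier results of these data known. Alternatives were quantile and cyclic loess normalization, array weights, an intensity trend, only the groups compared, no genes under the 25th percentile, the mean of all probe sets of a gene, the replicate number as a block and each array left out. Whether replicate numbers pair samples was not settled. Of 45 same-numbered pairs, 15 had deviations correlating over 0.1 (median -0.00), and of 90 differently numbered pairs 21 did (median 0.00).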

Additional observations from a re-analysis of the deposited data

Results flagged for a closer look

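By limma's interaction term, the change from 2 to 4 weeks differed between iCM and GFP- cells for 6 members. Each had the iCM change above the GFP- change. Over all genes 1.86% were called in this direction and 2.08% in the other. The 6 members were Cox7a1 (1.37, adjusted p = 3.34e-04), Cox8b (1.17, adjusted p = 0.00394), Atp5o (0.50, adjusted p = 0.0254), Atp5mpl (0.40, adjusted p = 0.0457), Ndufb11 (0.39, adjusted p = 0.0263) and Atp5g3 (0.39, adjusted p = 0.0377). Cox7a1 and Cox8b are muscle isoforms of complex IV, and both held under every alternative tried. Atp5o, Atp5mpl and Atp5g3 belong to complex V and Ndufb11 to complex I, and the calls on these 4 were lost under some alternatives. The count of 6 was 3 without GFP- 2-week replicate 1 or 3, iCM 4-week replicate 3 or GFP- 4-week replicate 1, and 2 without iCM 2-week replicate 3, iCM 4-week replicate 2 or GFP- 4-week replicate 2. It was 21 with quantile normalization, 16 with cyclic loess, 28 with array weights, 21 with an intensity trend and 2 with only the groups compared in the fit. The sizes compare changes over time and do not by themselves say which group moved. Cox7a1 rose in iCM (0.72) and fell in GFP- cells (-0.66), while Cox8b rose in iCM (1.11) and differed by -0.055 in GFP- cells (adjusted p = 0.853). Atp5o, Atp5g3 and Ndufb11 were not called over time in iCM. In GFP- cells they were called lower, calls lost under some alternatives. Atp5mpl was called higher in iCM and not called in GFP- cells.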

How the results depend on the processing

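The direction of every called difference was kept in all alternatives; signs of differences that were not called were not compared. Among results on named genes, apart from leaving out arrays, 1863 kept their side of the threshold, 67 gained a call and 26 lost one; with an array left out the numbers were 1455, 17 and 130. Counts of members higher in CM than in CF, lower in either iCM group than in CM, and higher in 4-week iCM than in CF or GFP- cells stayed within 1.5 times of the values reported. The counts below did not, and the cause was not tested.

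With quantile normalization the counts were 1 lower for 2-week iCM against CF, 38 higher for 2-week iCM against GFP- cells, 39 higher and 3 lower for iCM over time, 4 higher for GFP- cells over time, 2 lower for 2-week and 2 lower for 4-week GFP- cells against CF, and 21 higher for the interaction. With cyclic loess they were 5 lower for 2-week iCM against GFP- cells, 33 higher and 4 lower for iCM over time, 4 higher for GFP- cells over time and 16 higher for the interaction, and the shift of the Cox8b pair was 0.55 (adjusted exact p = 0.03). With array weights they were 68 higher and 2 lower for 2-week iCM against CF, 44 higher and 6 lower against GFP- cells, 1 lower for 4-week iCM against GFP- cells, 33 higher and 6 lower for iCM over time, 5 higher and 20 lower for GFP- cells over time, 1 higher for 2-week iCM against CM, 2 lower for 4-week GFP- cells against CF, and 28 higher and 2 lower for the interaction. With an intensity trend they were 5 lower for 2-week iCM against GFP- cells, 31 higher and 2 lower for iCM over time, 3 higher and 17 lower for GFP- cells over time and 21 higher for the interaction. With only the groups compared in the fit they were 1 lower for 2-week iCM against CF, 12 higher for 2-week iCM against GFP- cells, 6 higher for iCM over time, 0 higher and 4 lower for GFP- cells over time, 14 higher for 2-week and 2 lower for 4-week GFP- cells against CF, and 2 higher for the interaction. Without genes under the 25th percentile, 2 members were lower for iCM over time.

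With the replicate block, 2 members were lower for iCM over time against 1 without it, and the other counts stayed within 1.5 times. Whether the replicate numbers pair the samples was not settled.

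With each array left out in turn, the counts ran from 0 to 1 lower for CM against CF, 0 to 0 lower for 4-week iCM against CF, 16 to 29 higher for 2-week iCM against GFP- cells, 6 to 20 higher and 0 to 2 lower for iCM over time, 0 to 1 higher and 6 to 9 lower for GFP- cells over time, 12 to 17 higher for 2-week GFP- cells against CF, 1 to 3 higher and 0 to 0 lower for 4-week GFP- cells against CF, and 2 to 6 higher for the interaction. The Cox6a2 pair shifted by 0.35 to 0.53 and the Cox8b pair by 0.48 to 0.64. With 3 arrays a group, small differences and bright subunits limit what could be called.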

Other observations

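Over all genes, 19.6% were higher and 21.5% lower in CM than in CF, 17.2% higher and 17.1% lower in 4-week iCM than in GFP- cells, and 16.2% higher and 18.4% lower at 2 weeks. All 12 tricarboxylic acid cycle genes were higher in CM than in CF (median 1.61), led by Idh3a, a subunit of isocitrate dehydrogenase (2.69 ± 0.11, SE), and 10 of 12 were higher in 4-week iCM than in GFP- cells of that week (median 0.55), again led by Idh3a (1.10 ± 0.11, SE). Of 77 mitochondrial ribosomal protein genes, 66 were higher and 2 lower in CM than in CF (median 0.63), while 10 were higher and 7 lower in 4-week iCM than in GFP- cells (median 0.09), and 4 higher and 14 lower at 2 weeks. In these comparisons of iCM with GFP- cells no share of the list called was above that over all genes. Mrps36, now known as a component of the oxoglutarate dehydrogenase complex, was highest among the 10 (0.75 ± 0.14, SE), and Mrpl52 lowest (-0.62 ± 0.10, SE).

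Of 9 carrier and ATP export genes, 8 were higher in CM than in CF (19.6% of all genes) and 5 in 4-week iCM than in GFP- cells (17.2% of all genes). Ckmt2, the sarcomeric mitochondrial creatine kinase, had means of 5.59 ± 0.07 in CF and 5.89 ± 0.15 in 4-week iCM, both below the background level of 6.16, and of 9.53 ± 0.34 in CM (SD, n = 3). Ckmt1, the ubiquitous form, was 1.71 ± 0.22 (SE) higher in 4-week iCM than in CF, with means of 7.14 ± 0.26, 8.85 ± 0.12 and 7.44 ± 0.26 in CF, 4-week iCM and CM (SD, n = 3). Mfn2, a mitochondrial fusion protein, was higher in CM than in CF (2.09 ± 0.10, SE) and in 4-week iCM than in GFP- cells (0.91 ± 0.10, SE).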
